A study of Mus musculus with 4 samples.

Results

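The globins and the enzymes that make heme were read in 4 samples of mouse hippocampus by 8 probe sets for 7 genes: the adult globin genes Hba-a1 and Hbb-b2 and the enzyme genes Alas1, Alas2, Alad, Cpox and Fech. A probe set, the group of short oligonucleotides that reads a transcript on an Affymetrix array, was taken when the array's annotation gave it exactly 1 gene symbol and that symbol was 1 of these 7. Of the array's 12422 probe sets, controls left out, 10833 had 1 gene symbol, and these covered 8251 genes. The samples form a single group of total RNA from murine hippocampus, with 1 array each. Their labels give no strain, sex, age, treatment or blood removal, and do not say whether they came from separate animals, so the spread between them may be technical in part. The numbers 1 to 4 only name the samples. There was no contrast between conditions, and the genes were chosen with results from these arrays known, so their spread is described and not tested.

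Hemoglobin, the oxygen carrier of red blood cells, is built of alpha-globin and beta-globin chains that each hold a heme. Heme is made in steps that begin and end in mitochondria: an ALAS enzyme joins glycine and succinyl-CoA, Alad pairs the product into porphobilinogen in the cytosol, Cpox acts late in the making of the porphyrin ring, and Fech inserts the iron. The first step has an isozyme for all cells, Alas1, and an isozyme of developing red cells, Alas2, encoded on the X chromosome. Young red cells keep globin and Alas2 mRNA for a time after they lose their nucleus, and brain tissue holds blood in its vessels. In a tissue sample, fewer cells of a type and less RNA per cell cannot be told apart.

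Promoter windows were used for 5 of the 7 genes, and not for Fech or for Hbb-b2, which also varied widely. Of the 5, Hba-a1 and Alas2 varied widely over the samples and were lowest in the same sample, and Alas1 hardly varied. The promoters of the red cell genes Hba-a1 and Alas2 and of the housekeeping isozyme gene Alas1 are therefore shown. Each is the 250 bases before the transcription start in RefSeq, build GRCm38.p6, written 5′ to 3′ on the gene's strand, at chr11:32283422-32283671 (plus strand), chrX:150547167-150547416 (plus strand) and chr9:106247955-106248204 (minus strand, the start farthest upstream of the Alas1 starts listed). Capitals mark matches on either strand to AGATAA or its variant TGATAA (the GATA element bound by the red cell factor Gata1), CACCC (the box bound by Klf1 and its relatives), CCAAT (a box of many promoters), and either TATAAA or its variant TATAAG (the TATA box).
Hba-a1: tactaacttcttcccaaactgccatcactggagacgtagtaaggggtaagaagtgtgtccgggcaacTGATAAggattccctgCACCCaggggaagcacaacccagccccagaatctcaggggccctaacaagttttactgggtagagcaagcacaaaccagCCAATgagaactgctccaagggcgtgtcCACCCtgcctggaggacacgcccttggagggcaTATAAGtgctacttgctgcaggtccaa
Alas2: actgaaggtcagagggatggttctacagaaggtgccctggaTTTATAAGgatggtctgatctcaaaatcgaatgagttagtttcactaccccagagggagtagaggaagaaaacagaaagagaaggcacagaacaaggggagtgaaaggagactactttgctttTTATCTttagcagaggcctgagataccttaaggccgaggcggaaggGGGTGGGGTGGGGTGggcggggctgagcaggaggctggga
Alas1: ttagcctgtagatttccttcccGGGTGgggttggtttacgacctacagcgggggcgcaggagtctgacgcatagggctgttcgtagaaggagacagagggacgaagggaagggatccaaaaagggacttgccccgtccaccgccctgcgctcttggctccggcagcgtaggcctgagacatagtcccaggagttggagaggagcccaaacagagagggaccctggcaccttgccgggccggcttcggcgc
The Hba-a1 window held 1 GATA match, 183 to 178 bases before the start, 2 CACCC matches, 1 CCAAT match and 1 TATA match, 27 to 22 bases before the start. The Alas2 window held 1 GATA match, 86 to 81 bases before the start, and 3 CACCC matches side by side between 40 and 26 bases before it. Its 2 TATA matches overlap each other and begin 209 and 207 bases before the start. The Alas1 window held 1 CACCC match and 0 of the other motifs. Over all 32851 promoter windows of this length, 16.6% held a GATA match, 52.0% a CACCC match, 33.8% a CCAAT match and 17.0% a TATA match. In the same search, Cpox had 1 GATA and 4 CACCC matches, and the 2 Alad starts had 0 GATA matches. The upstream windows of Hba-a1 and its neighbour copy Hba-a2 shared an unbroken run of 247 bases.

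Signals are given in quantile normalized array units. Both globins were bright and were lowest in sample 3. The Hba-a1 probe set read 10256 units in sample 1, 9251 units in sample 2, 3629.8 units in sample 3 and 6998 units in sample 4, with a mean of 7534 ± 2938 units (SD, n = 4). Sample 3 was 2.40-fold lower than the average of samples 1, 2 and 4, and sample 4 stood at 0.998 times the average of the rest. Such averages are taken on the log2 scale throughout. The SD of its log2 signal was 0.67, against a median of 0.14 for the 500 probe sets closest to it in mean signal, of which 98.8% varied less. Without sample 3 this share was 83%.

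The Hbb-b2 probe set stood at 3658 units in sample 1, 1557 units in sample 2, 859 units in sample 3 and 1477 units in sample 4, with a mean of 1888 ± 1221 units (SD, n = 4). Sample 1 was high and sample 3 low, while samples 2 and 4 differed by only 1.05-fold. Its span was 4.26-fold, wider than that of Hba-a1 (2.83-fold), and the SD of its log2 signal was 0.86, with 99.2% of the 500 probe sets of like signal below it. Hbb-b1 and Hbb-b2 are the adult beta-globin genes of 1 haplotype of inbred mice, and Hbb-bs and Hbb-bt those of another. The labels name no strain.

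Other globin probe sets, left out of the selection because each is annotated to several globin genes, gave the same lowest and highest sample. The set annotated to Hba-a1 and Hba-a2 had 2551 units in sample 1, 1707 units in sample 2, 1163 units in sample 3 and 1669.7 units in sample 4. The set annotated to the 4 adult beta-globin genes had 14039, 10844, 5401 and 7892 units in samples 1, 2, 3 and 4. Their spans of 2.19-fold and 2.60-fold were narrower than those of Hba-a1 and Hbb-b2. Another set with the same 4 beta-globin annotations lay under the signal floor of 27.7 units in all 4 samples and carries no order.

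Ratios between globin probe sets on the same array changed about as much within a chain as between the chains. The log2 difference between Hbb-b2 and Hba-a1 on the same array was highest in sample 1 and lowest in sample 2 and spanned 1.08, a 2.12-fold change of the ratio. Between the shared beta-globin and the shared alpha-globin probe sets the same difference spanned 0.45, or 1.37-fold, with sample 2 highest and sample 3 lowest. Within a chain, the ratio of Hbb-b2 to the shared beta-globin set changed by 1.81-fold and that of Hba-a1 to the shared alpha-globin set by 1.74-fold. The 2 Cpox probe sets, which read 1 gene, differed by 1.83-fold in the same measure.

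Alas2, the red cell isozyme that begins heme synthesis, spanned 6.48-fold, the most of the 8 probe sets at the floor of 27.7 units. With a floor at the 40th percentile its log2 range was 1.90, against 2.69 at the lower floor and 2.09 for Hbb-b2. Its signal was 209.7 units in sample 1, 237 units in sample 2, 36.6 units in sample 3 and 152 units in sample 4, with a mean of 159 ± 88.9 units (SD, n = 4). Sample 3 stood apart from the others, 5.36-fold lower than their average and not far above the floor of 27.7 units, while samples 1, 2 and 4 lay within 1.56-fold of one another. Probe sets whose mean log2 signal exceeded the median over all sets, 6211 in number, are called bright here, and of these only 8 differed more between samples 2 and 3. The SD of its log2 signal was 1.24, above that of 98.8% of the 500 probe sets of like signal, a share that was 64.8% without sample 3. Alas2 had its highest value in sample 2, where both globins had theirs in sample 1.

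Alas1, the isozyme of all cells, varied little. It had 937 units in sample 1, 773 units in sample 2, 784 units in sample 3 and 880.2 units in sample 4, with a mean of 843 ± 78.6 units (SD, n = 4). The span was 1.21-fold, and sample 3 was 1.10-fold lower than the average of the others. The SD of its log2 signal was 0.13, below the median of 0.19 for probe sets of like signal. The isozymes of this step thus differed in log2 SD, 1.24 for Alas2 against 0.13 for Alas1, and this difference was not tested. Probe sets of like signal had a median SD of 0.34 for Alas2 and 0.19 for Alas1. Without sample 3 the log2 range was 0.64 for Alas2 and 0.28 for Alas1.

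**Figure D1:**
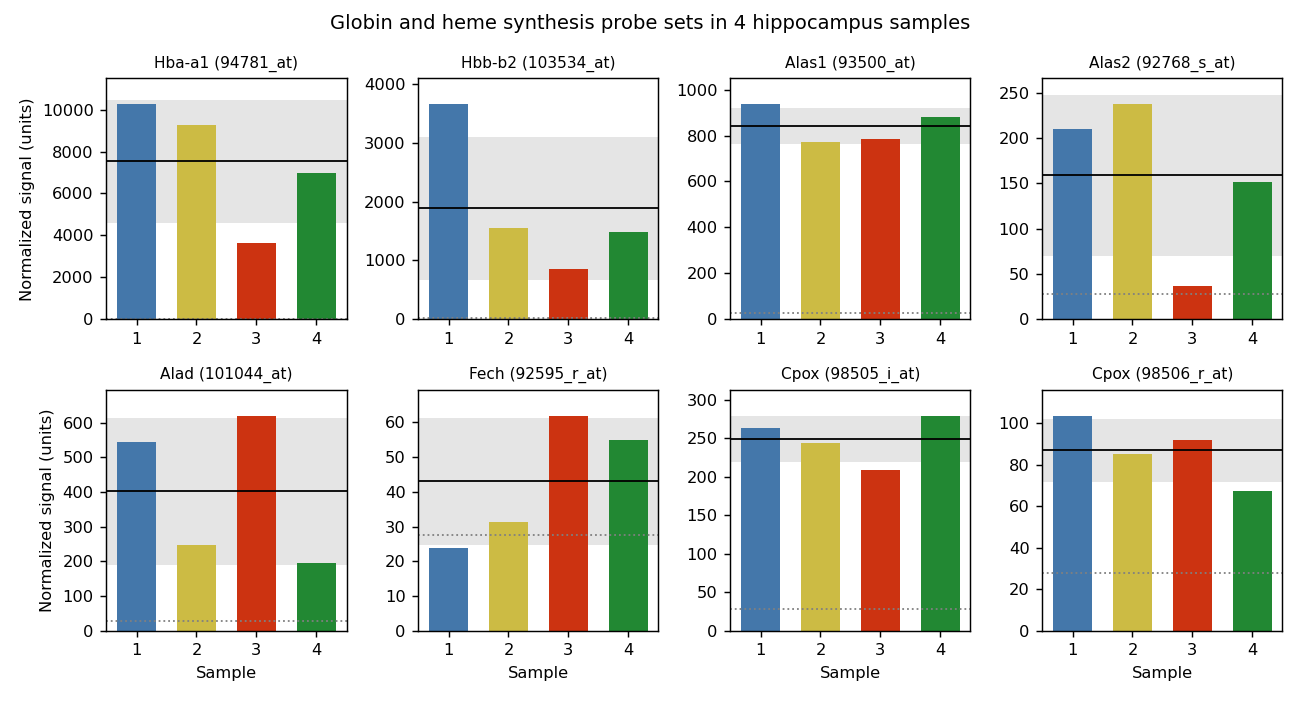
Normalized signal (linear units, axes from 0) of the 8 probe sets in samples 1 to 4, with the mean as a black line, 1 SD around it as a grey band (n = 4) and the floor of 27.7 units as a dotted line. Hba-a1, Hbb-b2 and Alas2 are lowest in sample 3, Alad is highest there, and Alas1 stays between 773 and 937 units.

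Alad, the second enzyme of the pathway, followed another order than the globins and Alas2. Its signal was 545 units in sample 1, 248 units in sample 2, 619.8 units in sample 3 and 196 units in sample 4, with a mean of 402 ± 212 units (SD, n = 4). Samples 1 and 3 were high and differed by 1.14-fold, samples 2 and 4 were low and differed by 1.26-fold, and no value lay between 248 and 545 units. In sample 3, where both globins and Alas2 were lowest, Alad was 2.08-fold higher than in the average of the other 3. Its span was 3.16-fold and the SD of its log2 signal was 0.82, above that of 98.8% of the 500 probe sets of like signal. As background, the Alad gene is known to differ in copy number between inbred mouse strains. No label gives a strain, and a part of copy number in these values was not tested.

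The late enzymes were read less securely. Cpox, which acts late in the making of the porphyrin ring, had 2 probe sets with opposite placing of sample 4. The brighter set had 263, 244, 209 and 279 units in samples 1 to 4, highest in sample 4, with a span of 1.33-fold. The dimmer set had 104, 85.2, 92.0 and 67.3 units, lowest in sample 4, with a span of 1.54-fold. Both spread less than most probe sets of like signal, with 26.0% and 21.2% of the 500 nearest below them, so neither sets a sample apart. Fech, which inserts iron to complete heme, had 23.8, 31.4, 61.9 and 54.9 units in samples 1 to 4. Its value in sample 1 lay under the floor and its span was at least 2.23-fold. This spread was ordinary for so dim a probe set, with 54.4% of the 500 nearest below it.

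**Figure D2:**
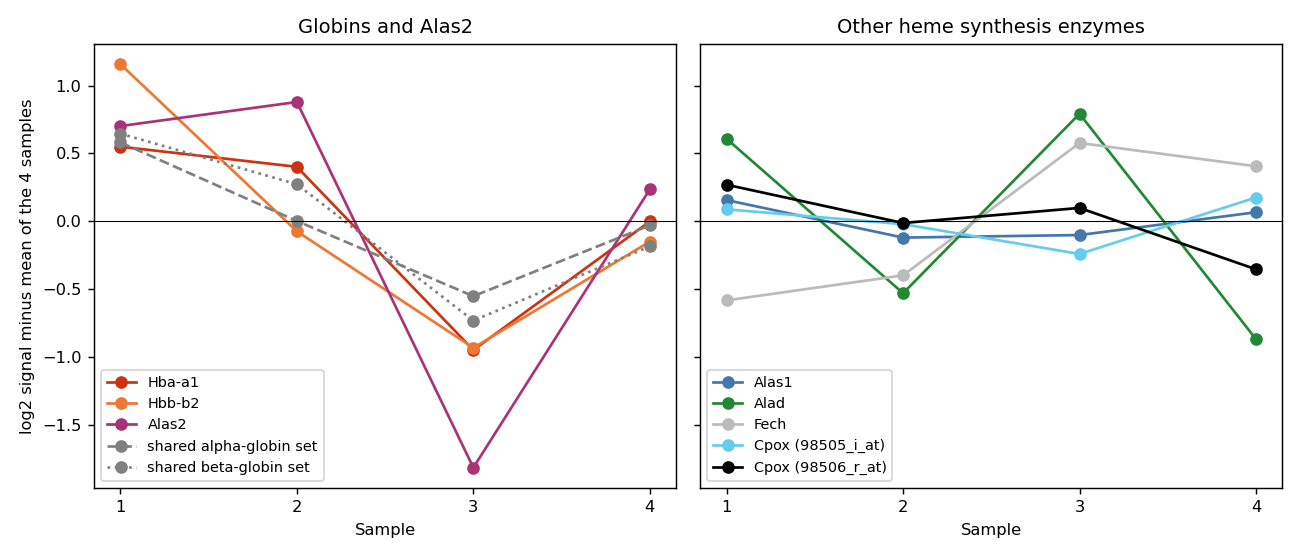
Log2 signal minus the mean of the 4 samples (vertical axis) for each sample (horizontal axis), with globins, Alas2 and the globin probe sets annotated to several genes on the left and the other enzymes on the right. Lines only join the points of 1 probe set. The 5 profiles on the left all dip in sample 3, and Alad on the right peaks there.

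Of the 8 probe sets, 5 spanned at least 2-fold over the 4 samples (Hba-a1, Hbb-b2, Alas2, Alad and Fech), against 22.6% of all 12422 probe sets. Of the 6 that were bright, 4 did, against 14.4% of the 6211 bright sets. The median span was 2.51-fold for the 8 probe sets and 1.47-fold for all. These counts describe the genes and support nothing further, since their variation was known when they were chosen. The span of Hba-a1 and Alas2 rested on sample 3: without it the span was 1.43-fold for Hba-a1, against 2.83-fold with all samples, and 1.56-fold for Alas2, against 6.48-fold. Without sample 3 only Hbb-b2 and Alad still spanned 2-fold, and without sample 1 the span of Hbb-b2 was 1.81-fold, against 4.26-fold with all samples. Alad spanned 2.49-fold to 3.19-fold whichever sample was left out.

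**Figure D3:**
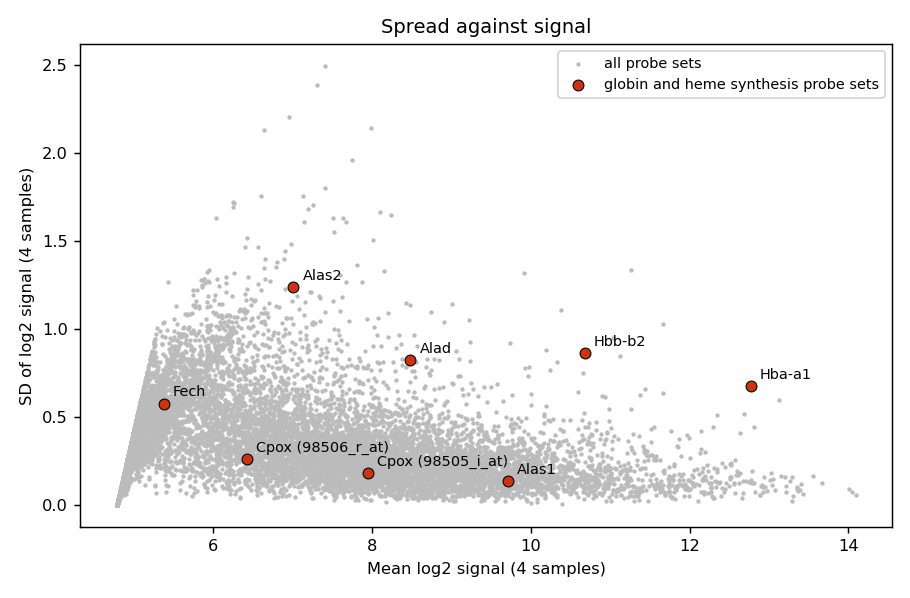
SD of the log2 signal over the 4 samples (vertical axis) against mean log2 signal (horizontal axis) for 12422 probe sets in grey, with the 8 globin and heme synthesis probe sets in red. Hba-a1, Hbb-b2, Alas2 and Alad lie at the upper edge for their signal, and Alas1 and both Cpox sets lie low in the cloud.

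Among the other pathway genes, no bright gene was far from its other samples in sample 3. Of 9 further genes of heme synthesis and transport on the array, 7 were bright, and 1 of these spanned 2-fold. Their median log2 difference between sample 3 and the average of the others was 0.01, the same as for all bright probe sets, and the single genes lay between -0.11 and 0.18. Uros, which closes the ring of the heme precursor, had 332 ± 43.5 units, and Tspo, a protein of the outer mitochondrial membrane, had 849 ± 43.1 units (SD, n = 4 each). Abcg2, an exporter that carries porphyrins, spanned 1.94-fold, from 73.8 units in sample 1 to 143 units in sample 2. Slc48a1, which moves heme out of lysosomes, was the gene that spanned 2-fold, with 63.0, 278, 146 and 174 units in samples 1 to 4.

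Genes that break down or bind heme had a median log2 range of 0.50, against 0.53 for all bright probe sets. Of 7 on the array, 6 were bright and 1 of these spanned 2-fold, and their median log2 difference in sample 3 was 0.21. Hmox1, the inducible enzyme that opens the heme ring, had 436, 500.2, 442 and 612 units in samples 1 to 4. Blvra, which turns biliverdin into bilirubin, had 152 ± 38.0 units, and Pgrmc1, a heme-binding membrane protein, had 1533 ± 193 units (SD, n = 4 each). Hebp1, a cytosolic heme-binding protein, spanned 2.56-fold and was lowest in sample 4, at 134 units. Iron genes had the smallest median log2 range of the lists, 0.22, with 0 of 6 bright genes spanning 2-fold. Ferritin heavy chain, Fth1, which stores iron, had 8063 ± 438 units, and the transferrin receptor Tfrc had 1294 ± 92.9 units (SD, n = 4 each). Ireb2, which binds iron-responsive elements in mRNAs such as that of Alas2, had 155 ± 16.2 units, and the iron-sulfur scaffold Iscu had 196 ± 16.3 units.

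Other genes used by red cells did not follow the globins as a list. Of 16 on the array, 9 were bright and 2 of these spanned 2-fold. Their median log2 difference between sample 3 and the other samples was -0.02, with 4 above the others and 5 below. Ank1 and Dmtn, which link the red cell membrane to its skeleton and are also made in brain, had 984 ± 90.0 and 1981 ± 273 units (SD, n = 4 each) and made up most of the list's summed signal of 5233 units in sample 3 and 5023, 4968 and 5027 units in samples 1, 2 and 4. Without them the other 14 genes summed to 2109 units in sample 3 and 1967, 1939.9 and 2379 units in samples 1, 2 and 4. Rhag, a red cell membrane channel, was lowest in sample 3, with 69.7 units there and 87.1, 118 and 140.1 units in samples 1, 2 and 4. Lmo2, a partner of Gata1 and Tal1 that vessel cells also express, went the other way, with 278 units in sample 3 and 186, 105 and 149 units in samples 1, 2 and 4. Tal1 and Car1 lay under the floor in all 4 samples. The embryonic globin genes Hbb-bh1, Hbb-y and Hba-x and the myoglobin gene Mb were not bright.

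Cells that come with blood or border the hippocampus were looked at beside the low globin values of sample 3. Of 19 genes of white blood cells and platelets on the array, 5 were bright and 1 of these spanned 2-fold. The median log2 difference of the 5 in sample 3 was 0.05, against 0.01 for all bright probe sets. The summed signal of the 19 was 1112 units in sample 3, and 1197, 1379 and 1222 units in samples 1, 2 and 4. This sum includes the genes that were not bright and values under the floor, so it may hold background. S100a9 of neutrophils and Cd8a of T cells lay under the floor in all samples. Camp and Elane, granule genes of neutrophils, spanned 2.95-fold and 1.97-fold and were highest in samples 2 and 4, and the neutrophil gene Lcn2 had 151 ± 7.38 units (SD, n = 4). Vessel genes, 17 on the array and 6 of them bright, spanned 2-fold in 3 of the 6 bright cases. In sample 3, 5 of the 6 were below the other samples, where 48.9% of all bright probe sets were, and the median log2 difference was -0.24. The summed signal of all 17 was 1814 units in sample 3, and 2197, 1965 and 1879.7 units in samples 1, 2 and 4. It too includes genes that were not bright, with Icam2 under the floor throughout. The tight junction gene Cldn5 was 446 units in sample 1 and 185 to 261 units in the others, the endothelial receptor Eng had 375 ± 34.0 units (SD, n = 4), and the pericyte gene Rgs5 was highest in sample 1, at 166 units.

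Of the 3 bright choroid plexus genes, Ttr and Kl were lowest in sample 3 and Slc4a2 was lowest in sample 4, and 1 of the 3 spanned 2-fold. Their median log2 difference in sample 3 was -0.51. The summed signal of the 5 on the array was 1472 units in sample 3, and 3369, 1993 and 2576 units in samples 1, 2 and 4. Ttr, the thyroxine carrier that choroid plexus secretes, made up most of this sum, with 954 units in sample 3 and 2630, 1236 and 1820.2 units in samples 1, 2 and 4. Its lowest and highest samples were those of Hba-a1 and Hbb-b2. Kl spanned 1.80-fold and Slc4a2 1.25-fold. Of 12 hippocampal and neuronal genes on the array, 11 were bright. Of these 11, 3 spanned 2-fold (27.3%, against 14.4% of all bright probe sets). Camk2a spanned 21.4-fold, more than Alas2 or any other of the 8 globin and heme synthesis probe sets, and Map2 spanned 4.78-fold. The 2 genes of the list with the highest mean read high in every sample. These were the synaptic gene Snap25 with 8316 ± 799 units and the kinase gene Camk2b with 4628 ± 433 units (SD, n = 4 each). Prox1, the gene of the list that was not bright, had 64.1 and 108.6 units in samples 1 and 3. It lay under the floor in samples 2 and 4. The median log2 difference of the 11 bright genes in sample 3 was 0.09. In sample 4, 4 of 11 bright neuronal genes were above the other samples, where 3244 of all 6211 bright probe sets were. Map2 and Camk2a had 63.9 and 29.4 units in sample 4. The median log2 difference of the 11 there was -0.24, against 0.02 for all bright probe sets. Over bright probe sets, pairs including sample 4 had median absolute log2 differences of 0.28 to 0.30, and other pairs 0.21 to 0.23. The 3′ to 5′ ratio of beta-actin was highest in sample 4, at 2.03, and was 1.84, 1.64 and 1.51 in samples 1, 2 and 3. That of Gapdh was also highest in sample 4, at 1.15, and was 0.887, 0.864 and 0.981 in samples 1, 2 and 3. The part of blood and bordering tissue in the globin and Alas2 values, and of RNA quality in these and in the low Alad value of sample 4, was not tested.

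**Figure D4:**
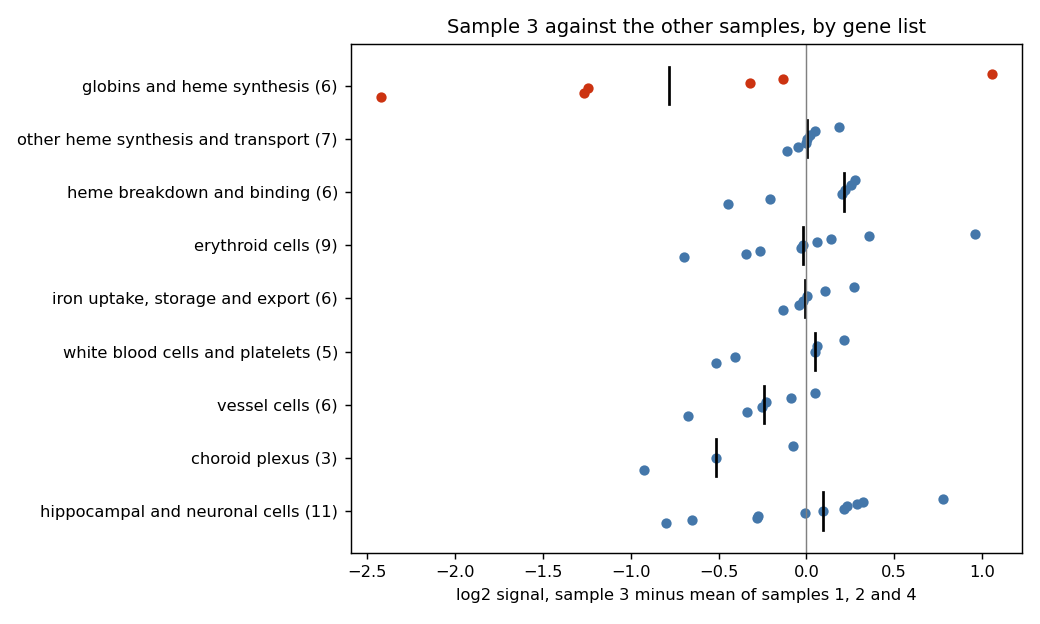
Log2 signal in sample 3 minus the mean of samples 1, 2 and 4 (horizontal axis) for the bright genes of each list (number in brackets), with 1 point per gene and the list's median as a black bar. Alas2 (-2.42), Hba-a1 (-1.27) and Hbb-b2 (-1.24) lie far to the left and Alad (1.06) to the right. The medians of the other lists lie between -0.51 and 0.21. Single genes of those lists also lie apart, among them Ttr (-0.92) and Rhag (-0.70) to the left and Lmo2 (0.96) to the right.

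Likeness between profiles was measured as the Euclidean distance between log2 signals centred on each probe set's mean over the 4 samples, among 5617 bright probe sets of other named genes. With 4 samples, some genes come close by their number alone, so the nearest are named as a description. Nearest to Hba-a1 were Pknox1 (distance 0.08), Dap3 (0.24) and Gng2 (0.25), which encode a homeodomain factor, a mitochondrial ribosomal protein and a G protein subunit. The shared beta-globin probe set lay at 0.33, with 5 named probe sets nearer, and Hbb-b2 lay at 0.79, with 182 nearer. Nearest to Hbb-b2 were the autophagy gene Atg7 (0.52), the formin Fmnl1 (0.52) and the nucleoside transporter Slc29a1 (0.58), and Hba-a1 had 11 named probe sets nearer than itself.

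Alas2 had as nearest the transcriptional repressor Hic1 (0.32), the chemokine receptor Ackr1 (0.54), the Duffy antigen of human red cells that venule cells also carry, and Prp2 (0.72). Ackr1 had 35.7 units in sample 3 and 131, 219 and 147 units in samples 1, 2 and 4. Hba-a1 lay at 1.03 from Alas2, with 13 named probe sets nearer. Nearest to Alad were the chaperone Hspa4 (0.18), the secretory granule protein Scg5 (0.26) and the protease cathepsin E, Ctse (0.29). Scg5 had 1080.1, 536 and 1225 units in samples 1 to 3 and 483 units in sample 4, the same order as Alad. No other globin or heme synthesis probe set was near Alad, the closest being the dimmer Cpox set at 1.06, with 470 named probe sets nearer.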

How the data were processed

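Total RNA of 4 hippocampus samples, 1 group, was measured with 1 array each. The deposited values are array intensities on a linear scale, scaled to a shared level before deposit (mean of 250.1 units on each array without the lowest and highest 2% of probe sets). Which software made them is not given in the sources used here. After removal of 66 control probe sets, limma's quantile normalization was applied to the rest (limma 3.58.1, R 4.3.3). Values under the 25th percentile (27.7 units) were set to it before log2 for ranges, SDs and differences. Printed signals and summed signals are before this floor, and the sums include dim genes. Dim probe sets may read background only, and precision is limited by the small number of arrays, 4. Of 12422 probe sets, 10833 had 1 gene symbol, 396 several and 1193 none, and 10817 symbols were taken from RefSeq. For a listed gene with several probe sets, the one of highest mean log2 signal was used.

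The members and the gene lists were chosen with earlier results of these data known. Besides the members, the text names from each list the 2 genes with the highest mean and the 2 with the largest range among bright genes, and the 3 nearest profiles. Genes under the floor, the other globins and those in the closing section were named outside this rule, after their values were seen. Alternatives were the normalization, the floor, the signal filter, the fold threshold and leaving out each sample.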

Additional observations from a re-analysis of the deposited data

How the results depend on the processing

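The count of 5 globin and heme synthesis probe sets spanning at least 2-fold was also 5 with the values as deposited, with arrays scaled to the same median and without a floor, and 4 with a floor at the 40th percentile or above the median signal only. It was 3 at a threshold of 3-fold, 6 at 1.5-fold, and between 2 and 5 when 1 sample was left out. It was 3 without sample 1 and 2 without sample 3. The count over all probe sets was 2810. It was 5364 with no floor, 1239 with a floor at the 40th percentile, 897 above the median signal, 5922 at a threshold of 1.5-fold and 888 at 3-fold, each of which follows from the altered threshold or set of values counted, and it was between 1650 and 2237 when 1 sample was left out, with 1650 without sample 4. Of 64 log2 ranges recomputed for the 8 probe sets, 58 moved by less than 1 SD of the log2 signal. Of 64 SD percentiles among probe sets of like signal, 15 moved by 10 points or more, all of them for genes other than Alad and Hbb-b2. The range of the percentile was 64.8 to 99.8 for Alas2, 83 to 99.4 for Hba-a1, 20.2 to 49.4 for Alas1, 33.4 to 69.8 for Fech, and 12.2 to 42.6 and 12.6 to 35.8 for the Cpox sets. The log2 range of Alas2 was 1.90 with the higher floor. The 6 log2 ranges that moved further were Hba-a1 (0.52), Alas2 (0.64) and the brighter Cpox set (0.19) without sample 3, Hbb-b2 (0.85) without sample 1, the dimmer Cpox set (0.27) without sample 4, and Fech (0.00) with the higher floor, which lies above all of its values. No paired analysis was possible because there is 1 group. The dim signal of Fech, with 1 of 4 values under the floor, limits what its order can show.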

Other observations

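Some genes of iron and heme handling with low mean signals had wide spans, and are named after their values were seen. Clpx, a mitochondrial chaperone that helps to activate ALAS, had 37.5, 36.9 and 91.0 units in samples 1 to 3 and lay under the floor of 27.7 units in sample 4. Hemopexin, Hpx, a plasma protein that binds free heme, had 98.1 units in sample 2 and 49.4 units in sample 3 and lay under the floor in samples 1 and 4. Slc4a1, the anion exchanger of the red cell membrane, had 66.5 units in sample 3 and 29.6, 89.2 and 68.3 units in samples 1, 2 and 4. It was lowest in sample 1, where both globins were highest, but its value there was just above the floor of 27.7 units. Of the 9 bright red cell genes, 2 were lowest in sample 1, 4 in sample 2, 2 in sample 3 and 1 in sample 4. The choroid plexus gene Folr1 lay under the floor in sample 3 and had 174, 146 and 128 units in samples 1, 2 and 4.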
